A study of Mus musculus and synthetic RNA with 74 samples.

Results

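The transcription factor p53, encoded by Trp53, and 9 genes that it is known to control were described in preimplantation mouse embryos: Cdkn1a, Ccng1, Mdm2, Phlda3, Aen, Trp53inp1, Eda2r, Sesn2 and Zmat3. All 10 were found by gene name among the 20330 genes listed for E2.5 and the 21199 genes listed for E3.5. The list was chosen on the comparison of KO with other E3.5 embryos that the authors deposited, starting from Cdkn1a and Phlda3, so a difference between genotypes in these genes would be no independent result. The authors' own comparison columns were not used here. The values used are the authors' means over all embryos of a stage, so no value by genotype, no spread between embryos and no test is given, and the wording higher or lower refers to these means only.

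The study followed single embryos from crosses of Mettl16 heterozygous parents, to ask what the loss of the m6A RNA methyltransferase METTL16 does to the embryonic transcriptome. At E2.5, the morula stage, 31 embryos were sequenced, of which 5 were wild type (WT), 14 were heterozygous (HET) and 12 were knockout (KO). At E3.5, the blastocyst stage, there were 39 embryos, 18 WT, 9 HET and 12 KO. All came from 1 mutant line, in which a cassette with stop codons was inserted into exon 3 of Mettl16. Founders were made in B6D2F1/J embryos and crossed to C57BL/6JRj mice, the mothers were superovulated, and the insertion is carried in the germ line, so it is not limited to a cell type. Polyadenylated RNA of each whole embryo was amplified by Smart-seq2, which does not mark the strand. KO embryos were 38.7% of those at E2.5 and 30.8% of those at E3.5, and WT embryos were 16.1% and 46.2%, so stage and genotype mix cannot be told apart in what follows. The same holds for fewer expressing cells and less RNA per cell, since each library is a whole embryo.

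In a cell without stress, p53 protein is made and removed continuously, because MDM2, an E3 ubiquitin ligase, marks it for the proteasome. When DNA is damaged or ribosome assembly fails, p53 is stabilised and binds response elements near its targets. These then halt the cell cycle, repair damage, restrain growth signalling or start apoptosis. MDM2 is itself a target, which closes a feedback loop. p53 activity is thus controlled mostly at the protein level, and the abundance of its mRNA does not measure it.

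A p53 response element consists of a pair of decamers, each with a CNNG core whose middle bases are A or T. The GRCm38 genome was searched for the p53 consensus without a spacer, within 3000 bases of RefSeq transcript starts, with both cores intact and at most 2 mismatches elsewhere. The consensus reads the same on both strands. Of 21000 genes, 3.89% had such a match. Among the 10 genes, Cdkn1a, Ccng1 and Zmat3 had 1 each. They are shown because the later results on first exons and on single transcripts concern these genes, in the direction of the gene, with the cores in capitals.
Cdkn1a, chr17:29090928-29090947, plus strand: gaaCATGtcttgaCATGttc
Ccng1, chr11:40754936-40754955, minus strand: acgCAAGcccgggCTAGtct
Zmat3, chr3:32364331-32364350, minus strand: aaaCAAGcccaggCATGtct
The Zmat3 match had 0 mismatches and lay in the first intron. The Ccng1 match, also in the first intron, and the Cdkn1a match, before the gene, had 1 mismatch each. A match is a description of letters and not a site of binding, and the other 7 genes merely lacked these letters in this window.

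METTL16 methylates the adenosine between C and G in the nonamer UACAGAGAA, written TACAGAGAA in DNA. According to the paper, the RNA must also be suitably structured. Among spliced RefSeq mRNAs, 829 of 21000 genes (3.95%) held it, and of the 10 genes only Zmat3 did. There it lies in the coding sequence, in exon 4 of 6, at chr3:32343672-32343680 on the minus strand, and is given in capitals within its surroundings.
Zmat3, exon 4: tgatcctggcTACAGAGAAtgactactgt
Whether this stretch is folded or methylated in embryos was not analysed here.

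Marker genes of the blastocyst lineages were read as a check of the stage labels. Krt8, a keratin of the trophectoderm, had a mean normalized count of 651 at E2.5 and 30838 at E3.5. For Gata3, a transcription factor of the same lineage, the means were 511 and 9266, and for Cdx2, another, 171 and 1940. The epiblast factors Nanog and Sox2 were at 552 and 13.6, and then at 4161 and 165. Gata6, of the primitive endoderm, was at 3569 and 3676, Sox17 at 71.5 and 174, and the pluripotency factor Pou5f1 at 9017 and 3527. The cumulus cell genes Cyp19a1 and Has2 stayed at means of at most 2.48. Mettl16 itself was at 778 and 669, a mean in which KO embryos are pooled with the rest, so it does not check the genotype labels.

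Trp53, at chr11:69580359-69591873 of mm10, was the most abundant of the 10 genes per length at both stages. Its mean normalized count was 3991 at E2.5 and 2397 at E3.5, and its level per kb of exon was 2136 and 1283. By summed exon counts, in which reads over a junction can count more than once, its level per kb was 4696 and 1833. It stood above 95.3% of all genes per kb in morulae and above 92.1% in blastocysts. The E3.5 mean was 1.66-fold lower, whereas the median gene was higher at E3.5 by 0.55 on the log2 scale.

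Cdkn1a encodes p21, the inhibitor of cyclin-dependent kinases through which p53 stops the cell cycle. The mean normalized count of Cdkn1a, at chr17:29090979-29100722, was 1175 at E2.5 and 1373 at E3.5. Per kb these were 577 and 674, so it ranked number 3 of the 10 genes at both stages. By summed exon counts the direction turned, with 785 and 721 per kb. Ccng1, at chr11:40748552-40755286, encodes cyclin G1, which recruits a phosphatase to MDM2. Ccng1 had the largest stage difference of the 10, with a mean of 411 at E2.5 and 2667 at E3.5, a ratio of 6.49. It was thereby number 7 of the 10 genes per kb in morulae, with 118, and number 2 in blastocysts, with 765. By summed exon counts it was at 206 and 1005 per kb, again higher at E3.5.

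Mdm2, at chr10:117688875-117710758, had a mean of 851 at E2.5 and 893 at E3.5. Its level per kb was 275 at E2.5 and 288 at E3.5, which left it number 5 of the 10 genes at both. By summed exon counts it was at 495 and 323 per kb, so the direction turned.

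The genes linked to cell death spanned a wide range of levels. Aen encodes an exonuclease that degrades DNA in apoptosis, and Aen, at chr7:78895927-78908833, had means of 1827 and 1634. Phlda3, a small PH domain protein that competes with Akt for membrane lipids, had means of 184 at E2.5 and 316 at E3.5, a ratio of 1.72. It lies at chr1:135766085-135769134. Trp53inp1, at chr4:11156441-11174377, promotes autophagy and apoptosis, and its means were 498 and 377. Eda2r, the receptor of ectodysplasin A2 in the tumour necrosis factor receptor family, lies at chrX:97333841-97377209 and was the least abundant, with means of 46.3 and 96.9. Per kb, Aen was at 708 and 633 by these estimates, and at 643 and 245 by summed exon counts, which put it at number 5 in blastocysts. Eda2r was at 7.95 and 16.7 per kb, the lowest of the 10 by these estimates, and at 15.5 and 24.9 by summed exon counts.

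Sesn2, at chr4:132492804-132510456, encodes a sestrin, which restrains mTORC1 when leucine is scarce. Its mean was 1093 in morulae and 543 in blastocysts, 2.01-fold lower, and by summed exon counts its level per kb was 675 and 207. Zmat3, at chr3:32334792-32365665, encodes a zinc finger protein that binds RNA and acts on splicing. Zmat3 had means of 183 and 191, which over its long mRNA of 7784 nt gave only 23.5 and 24.5 per kb. By summed exon counts the direction turned, with 28.6 and 17.2 per kb.

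**Figure D1:**
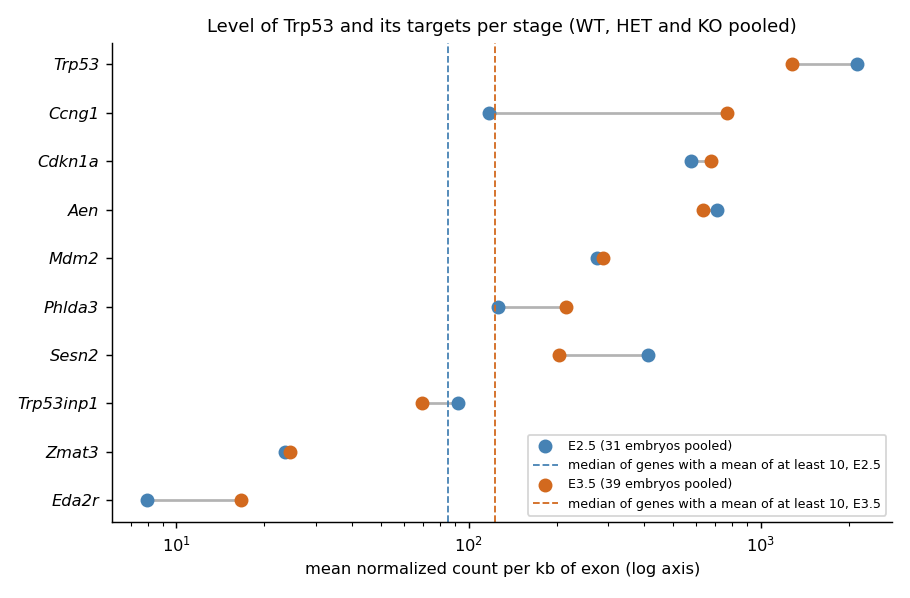
Level of each gene as mean normalized count per kb of exon (log axis) at E2.5 (blue) and E3.5 (orange), 1 point for the authors' mean over all embryos of the stage, with no error because the files hold no value per embryo. Ccng1 had the widest gap, from 118 to 765; points are Salmon estimates, and with summed exon counts the direction of Cdkn1a, Mdm2 and Zmat3 turned. Dashed lines are the medians per kb of genes whose mean reached 10, 85.2 in morulae and 123 in blastocysts.

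The order per kb from highest to lowest was Trp53, Aen, Cdkn1a, Sesn2, Mdm2, Phlda3, Ccng1, Trp53inp1, Zmat3 and Eda2r in morulae. In blastocysts it was Trp53, Ccng1, Cdkn1a, Aen, Mdm2, Phlda3, Sesn2, Trp53inp1, Zmat3 and Eda2r. Ranked by summed exon counts, Trp53 was again highest at both stages, and no other gene moved by more than 2 places. Without a spread between embryos, it cannot be said which neighbours in these orders differ. The highest gene was 269 times the lowest at E2.5 and 77.1 times at E3.5. A mean of at least 100 was found for 9 of the 10 genes at each stage, as for 40.1% and 44.5% of all genes.

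Stages were normalized separately by the authors, so the stage ratios are descriptions. The KO embryos on which the list was chosen also enter the E3.5 means, so the ratios are not independent of that choice. Among the 11774 genes with a mean of at least 10 at both stages, 36.5% were at least 2-fold higher at E3.5, and 2 of the 10 genes were, Ccng1 and Eda2r. At least 2-fold lower were 13.6% of all genes, and of the 10 only Sesn2. Both counts changed when exon counts were summed, as given further on. The median log2 ratio of the 10 genes was 0.06, against 0.55 for all genes (quartiles -0.34 and 1.47). Their summed mean was 10258 at E2.5 and 10488 at E3.5. This was 0.0435% and 0.0386% of the sum over all genes.

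Other genes of the pathway were taken from lists made for this work with earlier results of these data known. Of the proteins that act on or resemble p53, 19 were listed, and 16 had a mean of at least 10 at both stages. Of these 16, 4 were at least 2-fold higher at E3.5, 1 was at least 2-fold lower and 11 lay between, where 36.5% of all genes were higher and 13.6% lower by this measure. The 4 with the highest level per kb at E3.5 were the ribosomal proteins Rpl11 and Rpl5, which can bind and inhibit MDM2, the deubiquitinase Usp7 and the ubiquitin ligase Rchy1. Rpl11 went from 52113 to 91710 per kb between the stages, and Rpl5 from 20848 to 43656, values that are uncertain because both genes have many processed copies in the genome. Usp7 was at 904 and 1301 per kb, close to Trp53 in blastocysts, and Rchy1 at 473 and 794. The 4 lowest were Trp63, Trp73, Cdkn2a and Hipk2. The p53 relatives Trp63 and Trp73 had means of 0.959 and 2.68 in morulae, and of 0.0437 and 1.90 in blastocysts. Cdkn2a, whose ARF product blocks MDM2, had means of 8.73 and 0.514. Hipk2, a kinase of p53, had means of 59.2 and 133. Among the 16, the gene at least 2-fold lower was Chek2, a checkpoint kinase, with means of 6561 and 918.

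Of 30 further target genes, 28 had a mean of at least 10 at both stages. Of these, 12 were at least 2-fold higher at E3.5, 4 at least 2-fold lower, and 12 lay between, beside 36.5% and 13.6% of all genes. The 4 most abundant per kb at E3.5 were Sfn, Bax, Triap1 and Perp. Sfn, encoding 14-3-3 sigma, which holds back the cell cycle, had a mean of 31368 in morulae and 5990 in blastocysts. Bax, which permeabilises mitochondria, had means of 2782 and 2471, and Triap1, an inhibitor of apoptosis, 2117 and 2537. Perp, a membrane protein of desmosomes, had means of 509 and 3809. The 4 least abundant were Fas, Ddit4, Bbc3 and Ak1. Fas, a death receptor, had means of 0.645 and 1.69, and Bbc3, which encodes the BH3-only protein PUMA, 26.6 and 23.5. The mTORC1 inhibitor Ddit4 had means of 207 and 15.5, and the adenylate kinase Ak1 2.96 and 46.4. The median log2 ratio of the 28 was 0.48, beside 0.55 for all genes.

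The second set of tables gives the authors' mean normalized count of each single exon and intron of RefSeq transcripts, which shows where along a gene the reads lie. A read that spans a junction can count for both exons, so short exons are overstated per length. Cdkn1a has a pair of alternative first exons, and they had opposite stage differences. The first exon of NM_007669, at chr17:29093769-29093861, had a mean of 275 in morulae and 163 in blastocysts. The first exon of NM_001111099, at chr17:29090979-29091101, had 23.4 and 54.6. Per kb, the exon of NM_007669 was therefore at 2955 and 1758, and that of NM_001111099 at 190 and 444. Exons 2 and 3, which both transcripts share, had means of 988 and 514 in morulae, and of 836 and 511 in blastocysts. The p53 match shown above is centred 41 bases before the start of NM_001111099 and 2831 bases before that of NM_007669. Whether the match has a part in the difference was not tested.

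**Figure D2:**
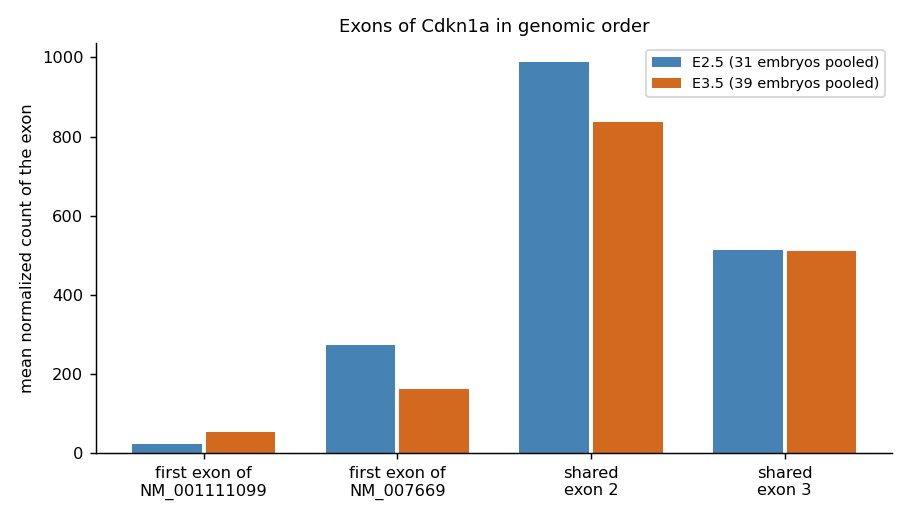
Mean normalized count of the 4 exons of Cdkn1a in genomic order at E2.5 (blue) and E3.5 (orange), bars from 0, each the authors' mean over all embryos of the stage and without error bars because no value per embryo is held. The upstream first exon was higher at E3.5 (54.6 against 23.4) and the downstream first exon lower (163 against 275), while the last exon was at 511 and 514.

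Exons far from the 3' end were lower at E3.5 relative to the terminal exon in most of the genes, as in 91.4% of all genes by the ratio of upstream to terminal exons. In Sesn2 the first exon had a mean of 152 in morulae and 8.59 in blastocysts, 17.7-fold lower. Its last exon had 528 and 394, 1.34-fold lower. In Zmat3 the first exon had 17.2 and 1.65, and the last exon, which holds most of the mRNA, 97.7 and 114. In Trp53 the first exon had 565 and 130, and the last exon 1169 and 925. Thus the lower Trp53 level at E3.5 lay mostly in its upstream exons. Mdm2 was similar, with 56.8 and 12.2 in its first exon and 514 and 624 in its last.

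Mdm2 departed from an even slope at its 5' end. Exon 4 of NM_010786 had a mean of 63.5 at E2.5 and 28.4 at E3.5. Exon 5, just downstream, had 84.9 and 12.7, the lowest stage ratio in the gene. In Aen, exon 1 had 150 and 31.4 and the last exon 886 and 439. In Trp53inp1 the first exon had 40.2 and 5.60 and the last exon 348 and 276. Phlda3, with only 2 exons, had 103 and 88.2 in the first and 99.8 and 205 in the second, so only its terminal exon was higher at E3.5.

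Ccng1 differed from these in that all 6 of its exons were higher at E3.5. Its first exon had means of 94.7 and 243, and exon 3, with the largest ratio, 149 and 956. In Eda2r the first 3 exons were lower at E3.5, the first with 4.09 and 3.04, and exons 4 to 8 were higher, exon 5 with 7.06 and 15.6.

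**Figure D3:**
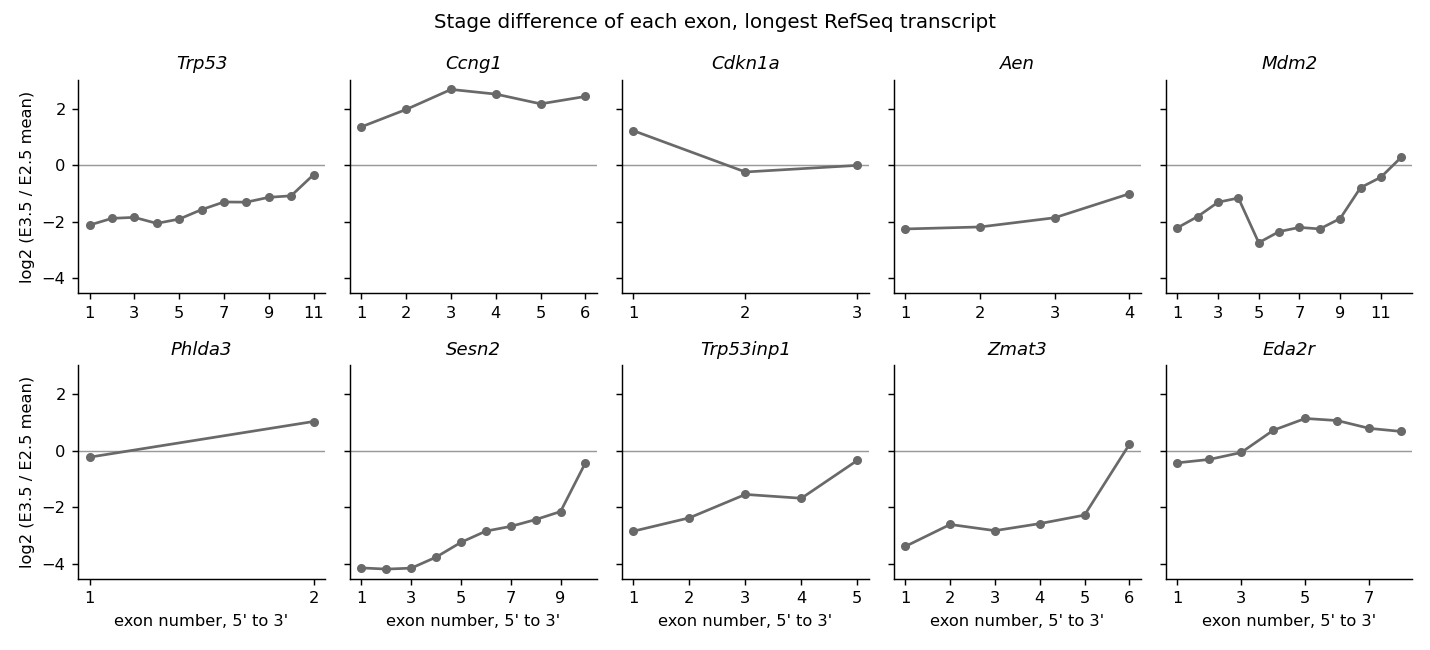
Stage difference of every exon, as log2 of the E3.5 over the E2.5 mean (y axis), against exon number from 5' to 3' (x axis) in the longest RefSeq transcript of each gene; points are exons, and the line at 0 marks equal means. In Sesn2, Zmat3, Trp53inp1 and Trp53 the last exon is nearest to 0 or above it, whereas all exons of Ccng1 lie above 0.

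The upstream exons were compared with the terminal exon in each gene by their summed counts per kb. The ratio of upstream to terminal exons was lower at E3.5 in 91.4% of the 7310 genes that have 2 or more exons and whose mean reached 100 at both stages. Of the 10 genes, 9 passed this filter, and the ratio was lower in all 9. Eda2r, which did not pass, was practically equal at both stages in its longest transcript. The change of this log2 ratio was -2.88 in Zmat3, -2.60 in Sesn2, -1.71 in Mdm2, -1.54 in Trp53inp1, -1.27 in Trp53 and -1.26 in Phlda3. It was -0.99 in Aen, and nearest to 0 in Ccng1 with -0.20, Cdkn1a with -0.18 and Eda2r with -0.0021. With the shortest transcript, an alternative chosen after seeing the data, it was -0.33 in Cdkn1a and -0.17 in Eda2r. With the longest transcript, the median was -1.26 over the 10 genes and -1.14 over all genes (quartiles -1.72 and -0.57). At least 2-fold lower was the ratio of 6 of the 10 genes and of 56.3% of all genes. Over all genes the median change was -0.62 for mRNAs under 2000 nt and -1.46 for those over 4000 nt. Zmat3 and Sesn2 nevertheless lay below all but 4.10% and 6.78% of genes in their own length class. The upstream exons of Zmat3 had low means at E3.5, from 1.65 to 5.80. For the other genes, the share of their length class with a lower change ranged widely. It was 14.4% for Trp53, 14.6% for Phlda3, 32.6% for Mdm2 and 46.8% for Trp53inp1. For Aen it was 68.8%, for Cdkn1a 77.8%, for Ccng1 91.5% and for Eda2r 94.2%. RNA integrity, amplification and the genotype mix of the stages can each bear on this ratio, and their part in it was not tested.

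**Figure D4:**
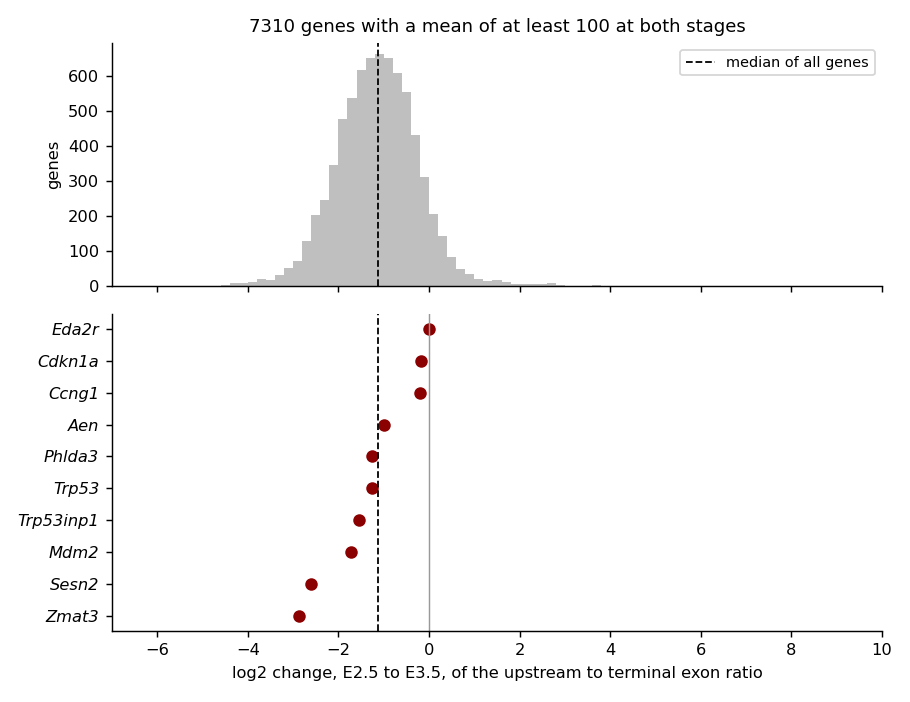
Change from E2.5 to E3.5 of the log2 ratio of upstream to terminal exons, per kb (x axis). The upper panel is a histogram of 7310 genes with their median of -1.14 as a dashed line, and the lower panel has 1 point for each of the 10 genes, from -2.88 in Zmat3 to about 0 in Eda2r.

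Summing exon counts, rather than taking the Salmon estimates, lowered the stage difference of nearly all genes. The median log2 ratio of E3.5 to E2.5 over 11485 genes was 0.55 by Salmon and 0.04 by exon sums, and the ratio was lower by exon sums in 93.7% of these genes and in all of the 10. The median difference between the 2 measures was -0.50 over all genes and -0.54 over the 10. The direction turned in 16.9% of all genes and in 3 of the 10, each with a Salmon log2 ratio near 0. Cdkn1a went from 0.23 to -0.12 on the log2 scale, Mdm2 from 0.07 to -0.61 and Zmat3 from 0.06 to -0.73. Sesn2 went from -1.01 to -1.71, and Aen from -0.16 to -1.39. For Aen the exon sum was 0.387 times the Salmon mean at E3.5 and 0.909 times at E2.5, the lowest of the 10 genes at both stages. Trp53 went from -0.74 to -1.36, and Eda2r from 1.07 to 0.68, which is under 2-fold. With summed exon counts, 1 of the 10 genes was at least 2-fold higher at E3.5, Ccng1 with 2.28, beside 26.7% of 11485 genes. At least 2-fold lower were 3, Trp53, Sesn2 and Aen, beside 23.4% of genes.

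Introns were quantified as counts per kb of intron, given as a percentage of counts per kb of exon in the same transcript. In the median over the 10 genes this was 1.01% at E2.5 and 3.65% at E3.5. It was 0.703% and 1.26% over the 7352 intron-containing genes whose mean reached 100 at both stages. Eda2r did not reach this mean at either stage, but it is counted among the 10 genes here and below. The percentage also depends on the exon counts. By exon sums, their median log2 change was -0.67 over the 10 genes and 0.04 over 11485 genes. The counts per kb of intron themselves had a median log2 change of 0.80 over the 10 genes and 0.70 over the 7352 genes. They were higher at E3.5 in 9 of the 10 genes and in 72.6% of all genes. The exception was Cdkn1a, with 38.4 and 28.4 per kb, whose first intron in the longest transcript contains the other first exon. Its percentage was then 4.89% and 3.93%. Without that intron the direction turned, with 3.80% at E2.5 and 11.4% at E3.5. These values rest on intron 2 alone, which spans 506 nt and had means of 15.1 and 41.6. The last intron of Eda2r also overlaps an exon of another transcript, and without it Eda2r had 0.803% and 2.76%, in place of 1.80% and 3.92%. Counted from the downstream first exon, the first intron of NM_007669 had a mean of only 8.44 at E2.5 and 10.5 at E3.5. Over its 4535 nt this was 1.86 and 2.32 per kb, whereas intron 2 of Cdkn1a was at 29.9 and 82.2. The percentage of Cdkn1a, and its place among the 10 genes, thus depends on the transcript taken.

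Trp53inp1 had 2.41% in morulae and 11.3% in blastocysts. Most of the Trp53inp1 signal lay in the first intron, with a mean of 29.9 at E2.5 and 76.4 at E3.5. Zmat3 had 3.00% and 6.67%, Aen 1.27% and 5.03%, Sesn2 0.542% and 3.27%, and Mdm2 0.751% and 2.86%. In these 5 genes and Trp53, thus 6 of the 10, the exon sum was lower at E3.5 while the intron sum was higher. The same held in 31.0% of the 7352 genes. Cdkn1a, with exon sums of 1525 and 1402, would join the 6 without its mixed intron, since its intron 2 had 15.1 and 41.6. In Mdm2 the intron sum went from 69.8 to 174, with 6.78 and 54.1 in intron 4 of NM_010786. Intron 1 of Mdm2 did the opposite, with 23.5 in morulae and 5.83 in blastocysts. The exons on either side of it were lower at E3.5 as well, exon 1 with 56.8 and 12.2 and exon 2 with 73.8 and 20.9. Intron 1 is known to hold the p53-responsive second promoter of the gene, and whether this has a part in the difference was not tested.

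In Ccng1 both exons and introns were higher at E3.5, and the intron sum most of all, from 4.43 to 111. Intron 2, at chr11:40752358-40753807, held most of it, with a mean of 2.74 in morulae and 88.1 in blastocysts. The exons on either side of it had 147 and 149 in morulae, and 577 and 956 in blastocysts. Trp53 and Phlda3 had the least intron signal, 0.164% and 0.361% of the exon level in morulae, and 0.683% and 0.286% in blastocysts. Since the libraries do not mark the strand, intron reads from the gene and from any transcript on the opposite strand cannot be told apart.

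**Figure D5:**
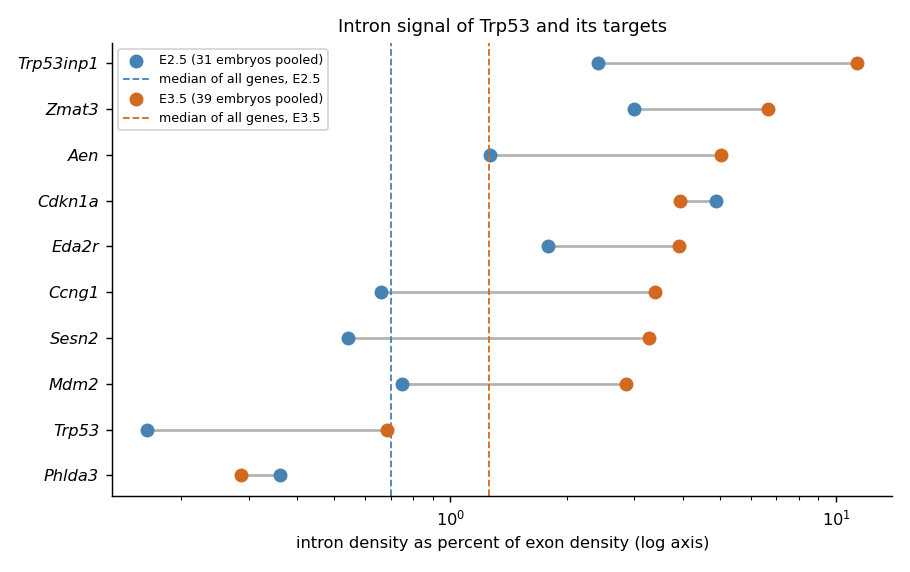
Counts per kb of intron as a percentage of counts per kb of exon (log axis) at E2.5 (blue) and E3.5 (orange), from the authors' means over all embryos of a stage, without errors. Trp53inp1 is at 11.3% at E3.5, and Phlda3 is lower at E3.5 than at E2.5. Cdkn1a is drawn with the intron that holds its other first exon, without which it goes from 3.80% to 11.4% on intron 2 alone. Eda2r is drawn with a similar intron, without which it goes from 0.803% to 2.76%. Dashed lines mark the medians of all genes, 0.703% and 1.26%.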

How the data were processed

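Per the labels and the study's methods, the authors estimated counts on RefSeq transcripts of mm10 with Salmon 0.7.2, summed them to genes, aligned reads with STAR, counted single exons and introns with featureCounts (version not given in the sources used here) and divided all by size factors of DESeq2 1.18.1. The deposited signal is the mean normalized count over all embryos of a stage. The tables also hold the authors' log2 fold changes and adjusted p-values between genotypes, which were not used. Depth per embryo is therefore not analysed here, and the planned genotype tests and fits without single embryos could not be run.

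Means were divided by the union of RefSeq exon lengths, and exons and introns were taken from the longest RefSeq transcript. Introns had been shortened by the authors at both ends for counting, whereas lengths here are the listed ones. Sequences are from RefSeq's GRCm38.p6, on which 101 of 101 introns of the 10 genes had GT and AG ends. The ratio and motif steps were tested on simulated data. All 10 genes, Mettl16, the markers, and the 4 highest and 4 lowest genes of longer lists per kb at E3.5 were named, Chek2 after its values were seen. Members, lists and rules were chosen with earlier results of these data known. Python 3.11.15, numpy 2.4.6, pandas 2.3.3 and matplotlib 3.10.9 were used.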

Additional observations from a re-analysis of the deposited data

How the results depend on the processing

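Values without replicates were taken as moved when they differed by over 1% from the reported one. When the levels were the sums of exon counts, the median level per kb of the 10 genes went from 200 to 351 at E2.5 and from 252 to 226 at E3.5, and the log2 stage difference changed sign in Cdkn1a (-0.12), Mdm2 (-0.61) and Zmat3 (-0.73), as in 16.9% of all genes, whose median moved by -0.50. The genes at least 2-fold higher at E3.5 went from 2 to 1 and those at least 2-fold lower from 1 to 3. With introns over 100 nt only, the median intron percentage at E3.5 was 3.70%. Without introns that hold an exon of another transcript, an alternative chosen after seeing the data, it was 0.777% at E2.5 and 3.33% at E3.5. Cdkn1a, lower at E3.5 with all introns, was then at 3.80% and 11.4%, on intron 2 alone, of 506 nt. The longest transcript's length moved no median. The shortest transcript, also chosen after seeing the data, gave a median upstream to terminal change of -1.27.

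The planned scaling by TMM, filter on low values and fits without single WT embryos need values per embryo and were not run. No paired analysis was possible because the columns are means over all embryos and carry no replicate numbers. The main limits are that genotypes are pooled, that no error can be given, that stages were normalized separately and that their genotype mix differs.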
